A study of Homo sapiens with 24 samples.

Results

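Nuclear lamina genes were followed in LNCaP cells, an androgen-sensitive human prostate cancer line, after siRNA transfection. The genes were *LMNA*, *LMNB1*, *LMNB2*, *TMPO* and *LBR*, and their probes were all those whose RefSeq accession maps to one of them. The rule found 8 probes of the 5 genes among 50599 probes (20992 named genes) on the 24 h arrays and the same 8 among 58201 probes (22439 named genes) on the 48 h arrays. Cells received a scrambled control duplex (scramble), si-A1 directed against the lncRNA *TAPIR-1*, or si-A2 directed against *TAPIR-2*, all by electroporation, and total RNA was hybridised 24 h or 48 h later to one-colour Agilent arrays. Each group had 4 biological replicates, 1 array each, and 48 h si-A2 replicate 2, a dim array, was left out of the fits. Each siRNA is a single duplex in 1 cell line, so an effect of the duplex itself and of its target cannot be told apart. The 24 h and 48 h samples were run on different array versions, so time and array version cannot be told apart either.

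The nuclear lamina is a filament mesh under the inner nuclear membrane. *LMNA* encodes the A-type lamins A and C by splicing, and *LMNB1* and *LMNB2* encode the B-type lamins, which stay farnesylated and membrane-bound. Lamina-associated polypeptide 2 (LAP2), from *TMPO*, and the lamin B receptor, from *LBR*, bind lamins and chromatin, and LAP2 alpha is the soluble form that pairs with A-type lamins inside the nucleus. In proliferating cells the lamina is taken apart and rebuilt at each mitosis, and loss of *LMNB1* mRNA is a common marker of cellular senescence. Arrays of whole cultures cannot tell fewer expressing cells from less RNA per cell.

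The median processed intensity of an array ranged from 24.4 to 57.2 on the 24 h arrays and from 20.4 to 32.2 on those of 48 h, against 13.9 on the array left out. All 11 probes of 8 LNCaP marker genes (*KLK3* and others) were well above background on every array. Of 5 fibroblast probes 3 failed that standard on every 24 h array and 3, not all of them the same, on every 48 h array. Well above background on all arrays were 0 of them at 24 h and 1, a *DCN* probe, at 48 h. Of 6 endothelial and 7 leukocyte probes 4 and 4 were well above background on all 24 h arrays and 3 and 4 on all 48 h arrays, and their part in the results was not tested. A probe annotated to *TAPIR-2* measured 3.12 to 4.70 log2 units after si-A2 at 24 h, below the scramble range of 4.81 to 5.28. The si-A2 values of 3.12 and 3.82 were not well above background. After si-A1 the probe measured 4.19 to 4.95, mostly below scramble too, so the drop was not particular to si-A2. At 48 h it measured 3.83 to 5.62 after si-A2 against 4.02 to 5.41 after scramble, so the knockdown was not visible there. Another *TAPIR-2* probe on the 48 h arrays was well above background on none of them. No probe was matched to *TAPIR-1*.

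All values below are log2 intensities after quantile normalization between the arrays of a time point, in which 1 unit is a 2-fold difference. Levels were compared between groups for the same probe, never between probes. A probe was called when the limma fit across all probes gave an adjusted p under 0.01 and a log2 fold change of at least 0.5. How many of all probes had groups without overlap was not counted. A lack of overlap is therefore given below only as a description of the values. Of the 96 lamina values at 24 h 93 were well above background, as were all 88 at 48 h. The 3 exceptions were si-A2 replicate 1 for *LMNB1* and for a *TMPO* probe, and si-A1 replicate 4 for that same *TMPO* probe.

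The B-type lamin gene *LMNB1* (chr5:126776623-126837020, GRCh38.p14) fell by the test after si-A2 at 24 h and after si-A1 at 48 h, and its other 2 log2 fold changes were below 0 but not called. It has 1 probe, annotated to NM_005573. At 24 h it measured 6.50, 5.70, 6.98 and 6.01 in scramble replicates 1 to 4, 5.45, 5.35, 5.16 and 5.24 after si-A1, and 4.12, 5.07, 4.36 and 4.60 after si-A2. Every knockdown array was below every scramble array, and every si-A2 array below every si-A1 array. Against scramble si-A2 gave a log2 fold change of -1.76 (95% CI -2.38 to -1.14, 3.39-fold lower, adjusted p = 0.00847) and si-A1 one of -1.0 (-1.62 to -0.38, adjusted p = 0.128), so *LMNB1* fell by the test after si-A2. The si-A2 call was narrow: it was lost when any of 10 of the 12 arrays was left out, the exceptions being scramble replicate 2 and si-A2 replicate 2, with adjusted p up to 0.0396 (without si-A2 replicate 3).

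At 48 h *LMNB1* measured 6.96, 6.24, 5.48 and 6.06 in scramble, 4.30, 4.16, 4.13 and 4.28 after si-A1, and 5.57, 4.28 and 4.96 after si-A2. The si-A1 replicates lay within a narrow band well under all scramble arrays, whereas si-A2 replicate 1 overlapped scramble replicate 3. *LMNB1* fell after si-A1, with a log2 fold change of -1.97 (3.91-fold lower, 95% CI -2.56 to -1.37, adjusted p = 0.00207). For si-A2 it was -1.16 (-1.81 to -0.51, adjusted p = 0.0874) and was not called.

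*TMPO* (chr12:98515573-98550351) fell by the test in the same comparisons, on 1 of its 2 probes after si-A2 at 24 h and on both after si-A1 at 48 h. One probe is annotated to the LAP2 alpha transcript NM_003276 and the other to the LAP2 beta transcript NM_001032283. The accessions are those of the array design, and the probes may read other transcripts of the gene too. At 24 h the LAP2 alpha probe measured 7.59, 7.60, 8.10 and 7.81 in scramble, 7.0, 6.75, 6.97 and 6.73 after si-A1, and 6.0, 6.61, 6.25 and 6.71 after si-A2. The groups did not overlap. It fell after si-A2 by 1.38 on the log2 scale (2.6-fold lower, adjusted p = 0.00203; 0.0111 without si-A2 replicate 3, which ended the call), and its log2 fold change after si-A1 was -0.91 (95% CI -1.31 to -0.52, adjusted p = 0.025).

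The LAP2 beta probe was dimmer and more variable at 24 h. It measured 5.75, 5.04, 6.38 and 6.02 in scramble, 4.21, 4.81, 4.30 and 3.61 after si-A1, and 2.41, 4.47, 4.42 and 4.19 after si-A2. Both knockdown groups again lay wholly below scramble, with si-A2 replicate 1 far below its group and not well above background. With that spread neither log2 fold change was called, at -1.57 for si-A1 (adjusted p = 0.14) and -1.93 for si-A2 (adjusted p = 0.0716).

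At 48 h the 2 *TMPO* probes had the largest changes of the lamina set. The LAP2 alpha probe measured 8.16, 7.86, 7.64 and 7.93 in scramble, 5.56, 6.16, 5.82 and 5.63 after si-A1, and 6.68, 6.05 and 6.52 after si-A2. The LAP2 beta probe measured 7.02, 6.65, 6.09 and 6.74 in scramble, 3.65, 4.24, 4.29 and 3.46 after si-A1, and 5.72, 5.24 and 5.13 after si-A2. For both probes all knockdown arrays were below all scramble arrays. After si-A1 both fell, with log2 fold changes of -2.11 (4.31-fold, adjusted p = 0.000147) and -2.71 (6.56-fold, adjusted p = 0.000208) in turn. After si-A2 the log2 fold changes were -1.44 (adjusted p = 0.0107) and -1.21 (adjusted p = 0.0538), neither past the threshold.

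*LBR* (chr1:225401502-225428821), whose product is both a lamin-binding protein and a sterol reductase, did not follow *LMNB1* at 24 h. It measured 5.55, 5.46, 5.93 and 5.77 in scramble, 6.48, 6.21, 6.33 and 5.93 after si-A1, and 5.53, 5.86, 5.92 and 5.72 after si-A2. The scramble and si-A2 values were interleaved and 3 si-A1 values lay above all of scramble, with log2 fold changes of 0.56 for si-A1 (adjusted p = 0.153) and 0.08 for si-A2 (adjusted p = 0.892). At 48 h it measured 6.09, 6.03, 6.18 and 6.16 in scramble, 5.01, 4.99, 4.85 and 5.48 after si-A1, and 5.81, 5.43 and 5.35 after si-A2, both knockdown groups now wholly below scramble. *LBR* fell after si-A1 by 1.04 on the log2 scale (2.05-fold, 95% CI of the log2 fold change -1.39 to -0.68, adjusted p = 0.00417). Its log2 fold change after si-A2 was -0.59 (adjusted p = 0.144). The si-A1 call was lost on leaving out any scramble array or si-A1 replicate 1, 2 or 3, with adjusted p between 0.0116 and 0.0179, and with the replicate number as a block (adjusted p = 0.0129), at log2 fold changes between -1.07 and -0.95. With normexp background correction the log2 fold change was -0.46, under the threshold on size.

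*LMNB2* (chr19:2428166-2456959), the second B-type lamin gene, had no called change. Its probe (NM_032737) measured 7.08, 7.33, 6.55 and 7.53 in scramble at 24 h, 7.76, 7.23, 7.78 and 7.78 after si-A1, and 6.93, 7.66, 7.43 and 7.90 after si-A2. These groups overlapped, with a log2 fold change of 0.51 under si-A1 (95% CI -0.06 to 1.08) and of 0.35 under si-A2 (-0.21 to 0.92). Without scramble replicate 3, the lowest scramble array, the log2 fold changes were 0.27 and 0.11. At 48 h it measured 7.67, 7.20, 6.71 and 7.10 in scramble, 6.75, 6.64, 6.37 and 6.52 after si-A1, and 7.07, 6.53 and 6.60 after si-A2. The si-A1 group overlapped scramble at 1 array (si-A1 replicate 1 above scramble replicate 3), and the log2 fold changes were -0.60 (95% CI -0.91 to -0.28, adjusted p = 0.025) for si-A1 and -0.37 (-0.71 to -0.02, adjusted p = 0.285) for si-A2.

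*LMNA* (chr1:156082573-156140081) had no called change after either siRNA on any of its 3 probes. The lamin A probe, annotated to NM_170707, measured 12.58, 12.61, 10.77 and 12.77 in scramble at 24 h, 12.73, 12.73, 12.67 and 12.68 after si-A1, and 12.55, 12.71, 12.67 and 12.59 after si-A2. All arrays but scramble replicate 3 lay between 12.55 and 12.77. Scramble replicate 3 also had the lowest median intensity of the 12 arrays at 24 h, 24.4, and the smallest share of probes well above background, 58.5%. The log2 fold changes of 0.52 for si-A1 (adjusted p = 0.557) and 0.45 for si-A2 (adjusted p = 0.69) rested on it, and without it they were 0.05 and -0.03. At 48 h the probe measured 11.81, 11.82, 11.85 and 11.83 in scramble, 11.75, 11.82, 11.65 and 11.68 after si-A1, and 11.90, 11.87 and 11.53 after si-A2. The 95% CI at 48 h ran from -0.33 to 0.12 for si-A1 and from -0.29 to 0.21 for si-A2.

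The other *LMNA* probes are annotated to the lamin C transcript NM_005572 and to NM_001282625. The lamin C probe ranged from 7.96 to 8.36 in scramble at 24 h, from 8.03 to 8.37 after si-A1 and from 8.29 to 8.73 after si-A2. The NM_001282625 probe ranged from 9.38 to 9.61 in scramble, from 9.32 to 9.52 after si-A1 and from 9.71 to 10.25 after si-A2, so that on this probe all si-A2 arrays exceeded all others. Its log2 fold change after si-A2 was 0.46 (95% CI 0.19 to 0.74, adjusted p = 0.119). At 48 h the lamin C probe ranged from 7.85 to 7.93 in scramble. It ranged from 8.05 to 8.20 after si-A1 and from 8.07 to 8.31 after si-A2, both wholly above scramble. Its log2 fold changes were 0.21 after si-A1 and 0.26 after si-A2. Those of the NM_001282625 probe were 0.43 (adjusted p = 0.038) and 0.29 (adjusted p = 0.283), and none of these was called. The *LMNA* probes thus disagreed by small amounts, and no group fell on any of them by the test.

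**Figure D1:**
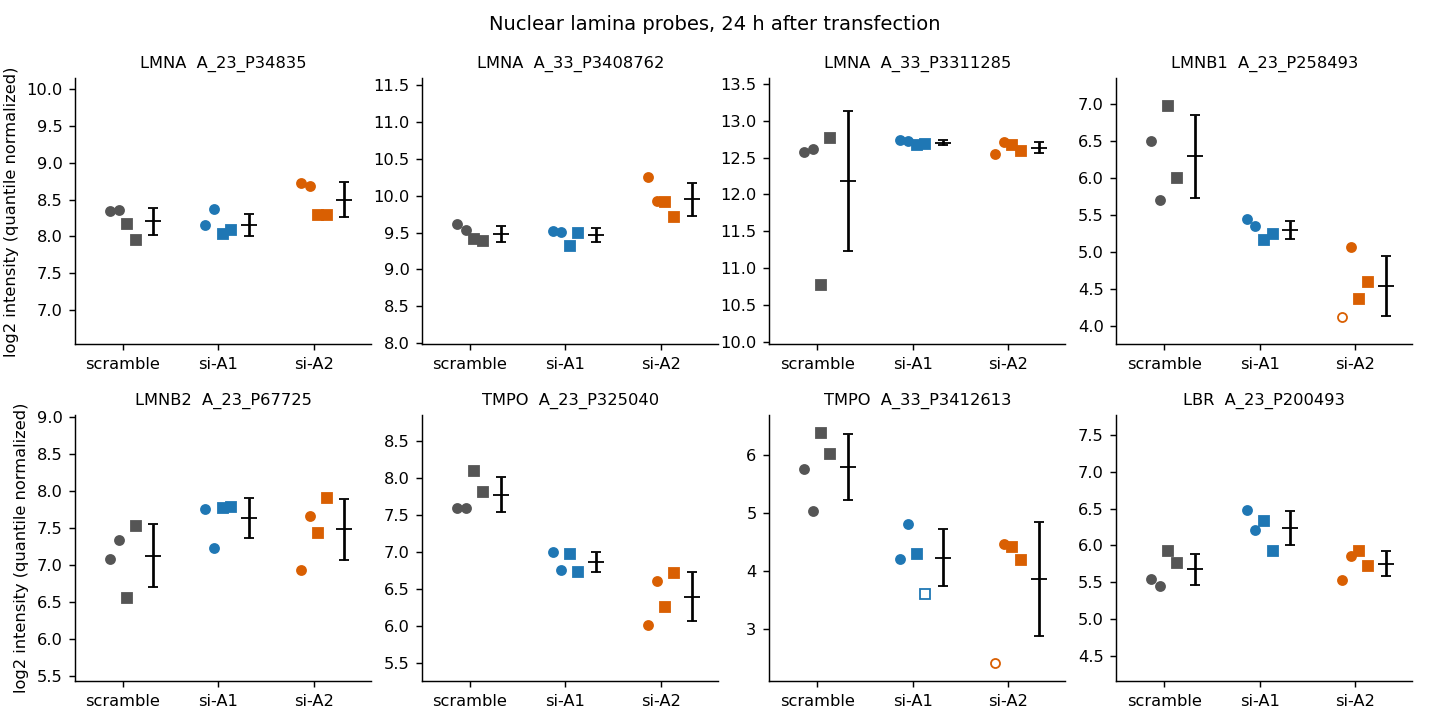
Log2 intensity of the 8 lamina probes on each of the 12 arrays at 24 h, by siRNA; circles are arrays of slide 1, squares of slide 2, open symbols were not well above background, and bars give mean ± SD (n = 4 per group). Each panel has its own vertical range. *LMNB1* and both *TMPO* probes are lower in every si-A1 and si-A2 array than in any scramble array, and scramble replicate 3 stands apart at 10.77 for the lamin A probe A_33_P3311285.

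**Figure D2:**
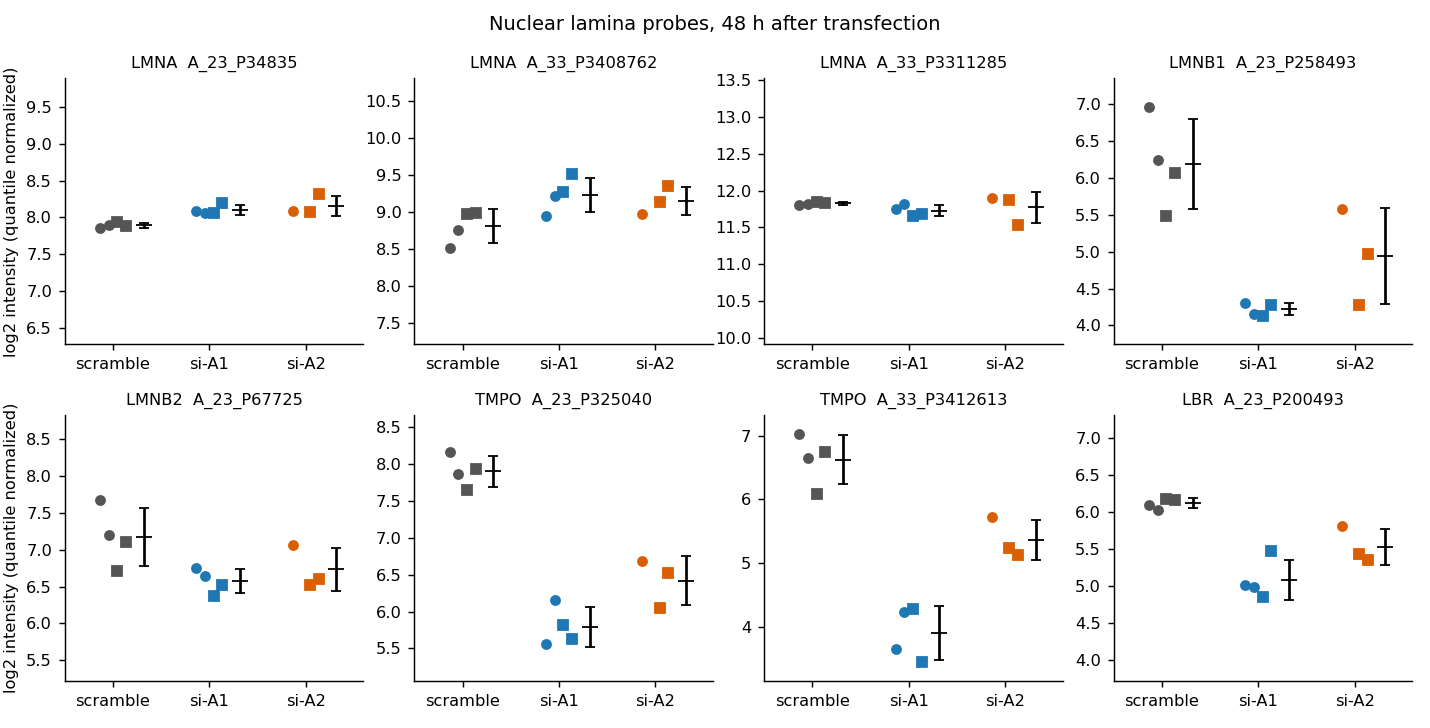
The same plot at 48 h on 11 arrays (scramble n = 4, si-A1 n = 4, si-A2 n = 3; bars are mean ± SD). *LBR* is now below scramble in every knockdown array, and the 2 *TMPO* probes are lowest after si-A1.

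By comparison, the counts were as follows. After si-A1 at 24 h 0 of the 8 lamina probes were called in either direction, 4 had an unadjusted p under 0.05 (3 lower, 1 higher) where 12.8% of all probes did, and over all 46687 probes 0.96% were called lower and 0.0685% higher. After si-A2 at 24 h 2 of 8 were called lower (*LMNB1* and *TMPO*) and 0 higher, against 0.797% and 0.0814% of all probes. After si-A1 at 48 h 4 of 8 were called lower (*LMNB1*, both *TMPO* probes and *LBR*) and 0 higher, against 3.17% and 1.36% of 51193 probes. After si-A2 at 48 h 0 of 8 were called, against 0.199% lower and 0.0293% higher, and 7 had an unadjusted p under 0.05 where 16% of all probes did. The median log2 fold change of the 8 probes was -0.03, 0.19, -0.82 and -0.48 in these comparisons in turn, beside medians of 0.04, 0.04, 0.04 and 0.00 over all probes tested. Both siRNAs at one time point were compared with the same scramble arrays. With 48 h si-A2 replicate 2 included in the fit, 0 of 8 probes were called after si-A1 at 48 h. With the replicate number as a block, 3 of 8 were called lower after si-A1 at 48 h, without *LBR*, and over all probes 1315 were called after si-A1 and 0 after si-A2.

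Each time point filled 2 slides, each with 2 replicates of every group. Within slide 1 and slide 2 the log2 fold change of *LMNB1* after si-A2 at 24 h was -1.51 and -2.01, and after si-A1 at 48 h -2.37 and -1.57. That of the LAP2 alpha probe of *TMPO* was -1.29 and -1.47 after si-A2 at 24 h and -2.15 and -2.06 after si-A1 at 48 h. The LAP2 beta probe gave -2.89 and -2.54, and *LBR* -1.06 and -1.01, after si-A1 at 48 h. In these comparisons every knockdown array was below every scramble array, so the direction within a slide was fixed in advance and is no separate check. With 2 arrays a group no probe was called within a slide.

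**Figure D3:**
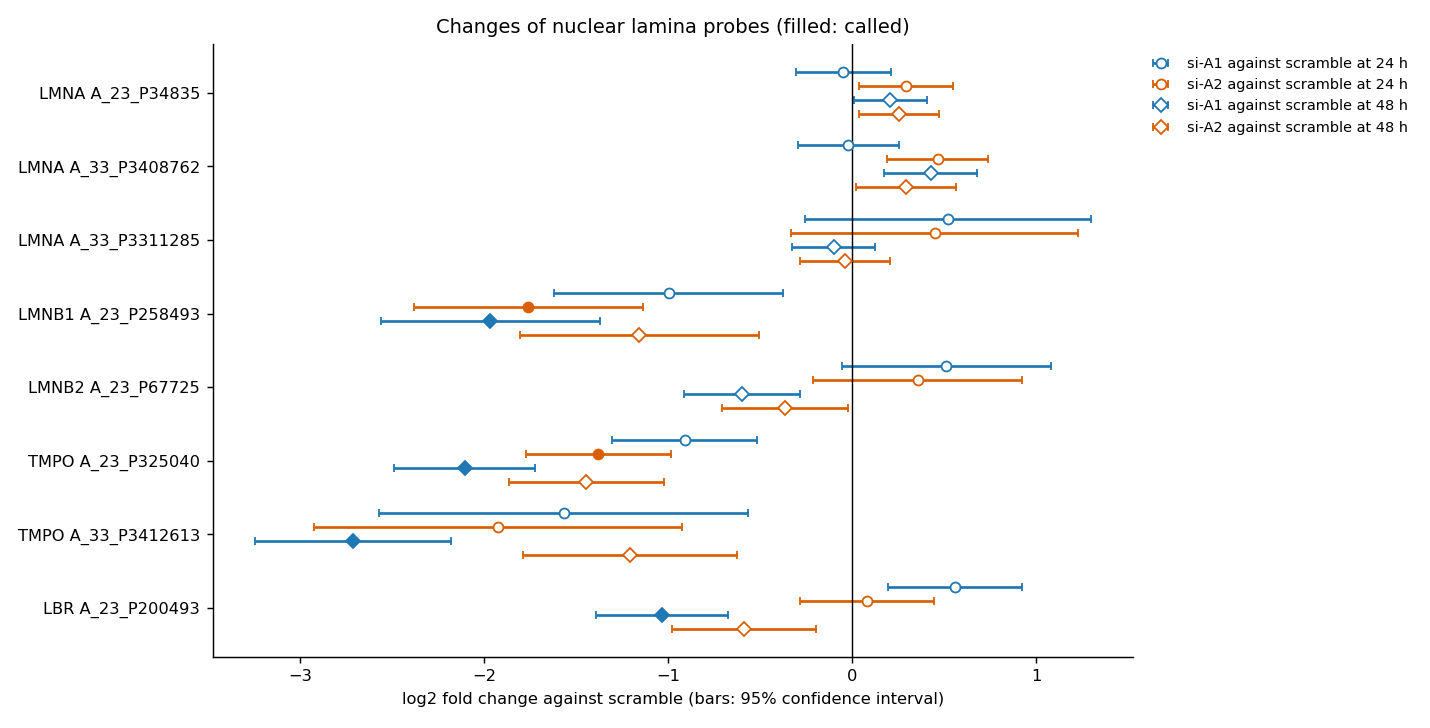
Log2 fold change against scramble (horizontal axis) of the 8 probes (rows) for both siRNAs and times, with 95% confidence intervals from limma; filled symbols were called. The filled symbols are *LMNB1* and one *TMPO* probe after si-A2 at 24 h, and *LMNB1*, both *TMPO* probes and *LBR* after si-A1 at 48 h.

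The 2 siRNAs were also compared directly. At 24 h 0 of 8 lamina probes were called between si-A2 and si-A1, 5 had an unadjusted p under 0.05 where 11.1% of all probes did, and 0.101% of all probes were called lower and 0.208% higher after si-A2. Of the 8 log2 fold changes 6 were below 0, and *LMNB1*, whose groups did not overlap, had one of -0.76 (95% CI -1.38 to -0.14, adjusted p = 0.309). At 48 h 7 of the 8 were above 0, of which 0 were called, 4 had an unadjusted p under 0.05 where 17.2% of all probes did, and 0.295% of all probes were called lower and 0.693% higher after si-A2. The largest difference was that of the LAP2 beta probe, which under si-A2 exceeded its si-A1 level by 1.51 on the log2 scale (95% CI 0.92 to 2.09, adjusted p = 0.0166), without overlap between the groups. *LMNB1* differed by 0.81 (0.16 to 1.46, adjusted p = 0.18).

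Whether an effect changed between the times was tested over the 39876 probes that are on both array versions and passed the background filter on both. For si-A1 1 of 8 lamina probes was called lower, *LBR*, against 0.0802% of all probes lower and 0.0426% higher. Its si-A1 effect at 48 h was 1.57 log2 units below that at 24 h (95% CI of the difference -2.05 to -1.10, adjusted p = 0.0045), which turned from a value above 0 to one below. The call was lost on leaving out scramble replicate 1, 2 or 4 or si-A1 replicate 1, 2 or 3 of 24 h, or scramble replicate 1 or 4 or si-A1 replicate 1, 2 or 3 of 48 h, with adjusted p up to 0.017, and with the replicate number as a block (adjusted p = 0.0118). The LAP2 alpha probe differed by -1.22 (adjusted p = 0.0339), *LMNB2* by -1.09 (adjusted p = 0.117) and *LMNB1* by -0.89 (adjusted p = 0.374). For si-A2 0 of 8 were called, against 0% of all probes lower and 0.0226% higher (1506 and 1439 of 39879 at an unadjusted p under 0.05 in limma, and 2 of the 8), and *LMNB1* differed by 0.70 (95% CI -0.19 to 1.59, adjusted p = 0.783).

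The *LMNB1* value minus the lamin A value was followed on each array. This leaves out *LMNB2* and the other *LMNA* probes, so it is not a balance of all B-type to A-type lamin mRNA. *LMNB2* had log2 fold changes above 0 at 24 h, 0.51 (si-A1) and 0.35 (si-A2), neither called. Without scramble replicate 3 they were 0.27 and 0.11. Its 48 h log2 fold changes, -0.60 and -0.37 in turn, were below 0 like those of *LMNB1* and were not called. The absolute difference of 2 probes has no meaning, but its change between groups does. At 24 h it was -6.08, -6.91, -3.80 and -6.76 in scramble, -7.29, -7.38, -7.51 and -7.45 after si-A1, and -8.43, -7.65, -8.31 and -7.99 after si-A2. The 3 groups did not overlap. The change was -1.52 for si-A1 (2.87-fold, exact two-sided permutation p = 0.0286, adjusted over 4 tests 0.0381) and -2.21 for si-A2 (4.62-fold, exact permutation p = 0.0286, adjusted 0.0381), where 0.0286 is the smallest p this design allows. Scramble replicate 3, with its low lamin A value, weighed on both: without it the changes were -0.82 and -1.51, still with no overlap. In these comparisons and after si-A1 at 48 h *LMNB1* alone already had no overlap with scramble. The permutation p there largely repeats that separation and is no separate evidence.

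At 48 h the difference was -4.85, -5.58, -6.36 and -5.76 in scramble, -7.44, -7.66, -7.52 and -7.39 after si-A1, and -6.33, -7.60 and -6.57 after si-A2. The si-A1 arrays were all below scramble, with a change of -1.87 (3.64-fold, exact permutation p = 0.0286, adjusted 0.0381). The si-A2 arrays overlapped scramble at 1 array, with a change of -1.20 (exact permutation p = 0.0857, adjusted 0.0857). With each replicate number's mean subtracted as a block, the si-A2 change was -1.19. It is given without a p, because the permutation was not kept within blocks.

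**Figure D4:**
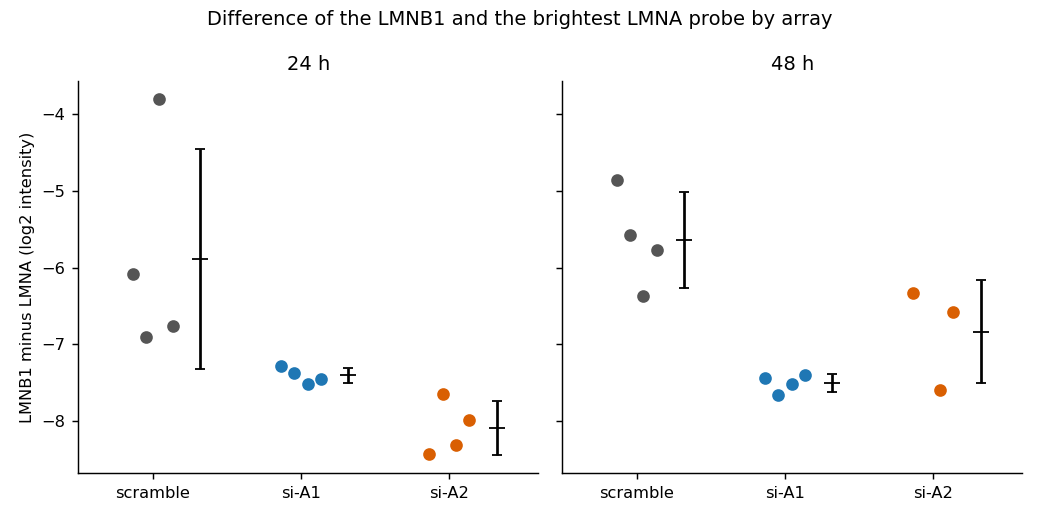
The *LMNB1* log2 intensity minus that of the lamin A probe on each array (points) by siRNA, at 24 h and 48 h, with mean ± SD (n = 4, except 3 for si-A2 at 48 h). At 24 h the groups separate completely, with scramble replicate 3 at -3.80 above its group, and at 48 h si-A1 lies below all scramble arrays.

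The lamina genes differed in how they moved together across single arrays. With the slide means subtracted, the correlation of *LMNB1* with the other genes over the 12 arrays at 24 h was r = 0.95 for *TMPO* (LAP2 alpha probe), which ranked 8 of 19999 named genes, but -0.01 for *LBR*, -0.46 for *LMNB2* and -0.56 for *LMNA*. Without scramble replicate 3 the value was -0.03 for *LMNB2* and -0.74 for *LMNA*, and 0.93 for *TMPO*. Over the 11 arrays at 48 h it was 0.96 for *LMNB2*, 0.95 for *TMPO*, 0.91 for *LBR* and 0.26 for *LMNA*. These ranked 110, 227, 591 and 7704 of 20710 named genes in turn, so many other genes had an r as high. Each gene entered by its probe with the highest r, which for *LMNA* was the lamin C probe at 24 h and the lamin A probe at 48 h. The lamin A probe had r = -0.59 with *LMNB1* at 24 h, and -0.097 without scramble replicate 3. These points share slides and the group differences, so the values describe the arrays and were given no p. *LBR* and *LMNB2* therefore tracked *LMNB1* on the 48 h arrays and not on the 24 h arrays.

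The 5 genes most like *LMNB1* at 24 h were *MND1* (r = 0.97), a meiotic recombination factor, the DNA translocase gene *HLTF* (0.97), *CCDC117* (0.96), the asparagine synthetase gene *ASNS* (0.96) and the cohesin subunit gene *RAD21* (0.96). At 48 h *RAD21* and *HLTF* had r = 0.95 and 0.94, and *ASNS* had 0.48. The 5 genes most like the lamin A probe at 24 h were *TUBA3D*, *MIR4435-2HG*, *CSN1S1*, *SLC25A47* and *CBR1-AS1*, all with r = 0.99. Without scramble replicate 3 their r lay between 0.90 and 0.94. At 48 h they had r between 0.43 and 0.82.

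Promoter sequence was set beside these patterns because *TMPO* and *LMNB1* moved together and *LMNA* did not. RefSeq windows of 300 bases (250 before to 50 after a start site, GRCh38.p14) were at hand for all 5 genes, 9 in all. They were searched on both strands for the CCAAT box (CCAAT), the cell cycle homology region (TTTGAA or TTCGAA) and E2F motifs (TTTGGCGC, TTTCCCGC, TTTGCCGC or TTTCGCGC). The CCAAT box was in 4 of the 9 windows, against 34.6% of all 35116 windows, the cell cycle homology region in 1 (*LMNB2*), against 16.4%, and an E2F motif in 1 (*LMNA*), against 3.31%. Both *TMPO* windows overlap and hold the same 2 CCAAT boxes, 47 and 15 bases before the first start site. The *LMNA* window at its first start site holds a CCAAT box 146 bases and an E2F motif 23 bases before the start. *LMNB1* has a CCAAT box on the opposite strand, 138 bases before its second start site, where it reads as its complement, and the *LBR* window holds none of these letters. The stretches are printed 5′ to 3′ on the gene's strand, up to the base before the first start site (for *LMNB1*, around the box), with the motif letters in capitals.
TMPO, chr12:98515413-98515572, plus strand: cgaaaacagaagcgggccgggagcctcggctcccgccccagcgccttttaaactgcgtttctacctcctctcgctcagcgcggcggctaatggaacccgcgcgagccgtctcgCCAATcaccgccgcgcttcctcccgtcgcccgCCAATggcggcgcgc
LMNB1, chr5:126776986-126777015, plus strand: tgcctgctccccATTGGcccatggtagtca
LBR, chr1:225428822-225428981, minus strand: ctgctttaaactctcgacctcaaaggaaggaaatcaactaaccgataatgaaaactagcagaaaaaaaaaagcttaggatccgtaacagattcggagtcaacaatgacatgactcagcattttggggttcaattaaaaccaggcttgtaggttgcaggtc
LMNA, chr1:156082413-156082572, plus strand: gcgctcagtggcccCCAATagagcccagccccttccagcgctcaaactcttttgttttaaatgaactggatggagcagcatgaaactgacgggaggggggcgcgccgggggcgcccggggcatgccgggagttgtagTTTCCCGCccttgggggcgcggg
A match is a description of the letters, not a site, and the CCAAT box was in windows of genes that fell (*TMPO*, *LMNB1*) and of one that did not (*LMNA*).

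Other genes of the nuclear envelope and peripheral chromatin were followed as a list of 34 genes with 51 probes, of which 50 passed the background filter at 24 h and 51 at 48 h. After si-A1 at 24 h 1 probe of this list was called lower and 0 higher, that of the nuclear basket gene *NUP50*, which fell by 0.97 (adjusted p = 0.00283). This stands beside 0.96% lower and 0.0685% higher of all probes. After si-A2 at 24 h 0 were called, against 0.797% lower and 0.0814% higher, with 7 of 50 at an unadjusted p under 0.05 where 6.48% of all probes were with a lower and 5% with a higher level. After si-A1 at 48 h 12 of 51 were called lower and 0 higher, against 3.17% and 1.36% of all probes, and after si-A2 at 48 h 1 lower and 0 higher, against 0.199% and 0.0293%. The median log2 fold change of the list was -0.23, -0.13, -0.41 and -0.15 in these comparisons in turn, beside 0.04, 0.04, 0.04 and 0.00 over all probes tested.

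Of the 12 probes called after si-A1 at 48 h, 4 were of nuclear pore genes. The transmembrane nucleoporin gene *NDC1* fell by 1.65 on the log2 scale (adjusted p = 0.000163), *NUP50* by 1.61 (adjusted p = 8.83e-05), and single probes of *NUP153* and *POM121* by 1.30 and 0.92. Another 5 were of chromatin tethers: the heterochromatin protein 1 genes *CBX5* (by 1.12 and 0.68 on its 2 probes) and *CBX1* (by 0.56 on 1 of its 3 probes), and *ANKLE2* (by 0.80 and 0.61), which acts in rebuilding the envelope after mitosis. The nesprin 2 gene *SYNE2* (by 1.18 on 1 probe) and the inner membrane protein gene *NRM* (by 0.86) were also among them. Probes of one gene disagreed for *SYNE2* (-0.39 on the other) and *POM121* (0.05 on the other). After si-A2 at 48 h *CBX5* fell by 1.34 on 1 of its 2 probes (adjusted p = 0.00556), and the other was not called. *NUP50* at -0.76 (adjusted p = 0.0214) and *NDC1* at -0.79 (adjusted p = 0.0338) were not called either. Between the siRNAs at 48 h only *NUP50* of the 51 probes was called, 0.86 higher after si-A2 (adjusted p = 0.00733).

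The lamin processing genes farnesylate, cleave and methylate the lamin tail. None of the 4 tested at 24 h or the 5 tested at 48 h was called in any comparison with scramble or between the siRNAs. The largest of their log2 fold changes, named after its values were seen, was that of the dim probe of the methyltransferase gene *ICMT* at 48 h, -1.94 for si-A1 (adjusted p = 0.0114) and -2.01 for si-A2 (adjusted p = 0.0441). Their most intense probe at 48 h, that of the protease gene *ZMPSTE24*, had a log2 fold change of -0.44 for si-A1 (adjusted p = 0.0412) and 0.34 for si-A2 (adjusted p = 0.236), and that at 24 h, of the farnesyltransferase subunit gene *FNTA*, 0.12 and 0.07. The most intense probes of the other roles were also not called at 48 h. *SYNE1* had log2 fold changes of -0.08 and -0.15 after si-A1 and si-A2, *PRR14* 0.64 and 0.50, *NUP98* -0.43 and -0.29, *TM7SF2* 0.44 and 0.35, and *CBX3* -0.75 (adjusted p = 0.0114) and -0.29. *DHCR7*, the most intense sterol reductase probe at 24 h, had 0.68 for si-A1 (adjusted p = 0.398) and 0.65 for si-A2 (adjusted p = 0.471).

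**Figure D5:**
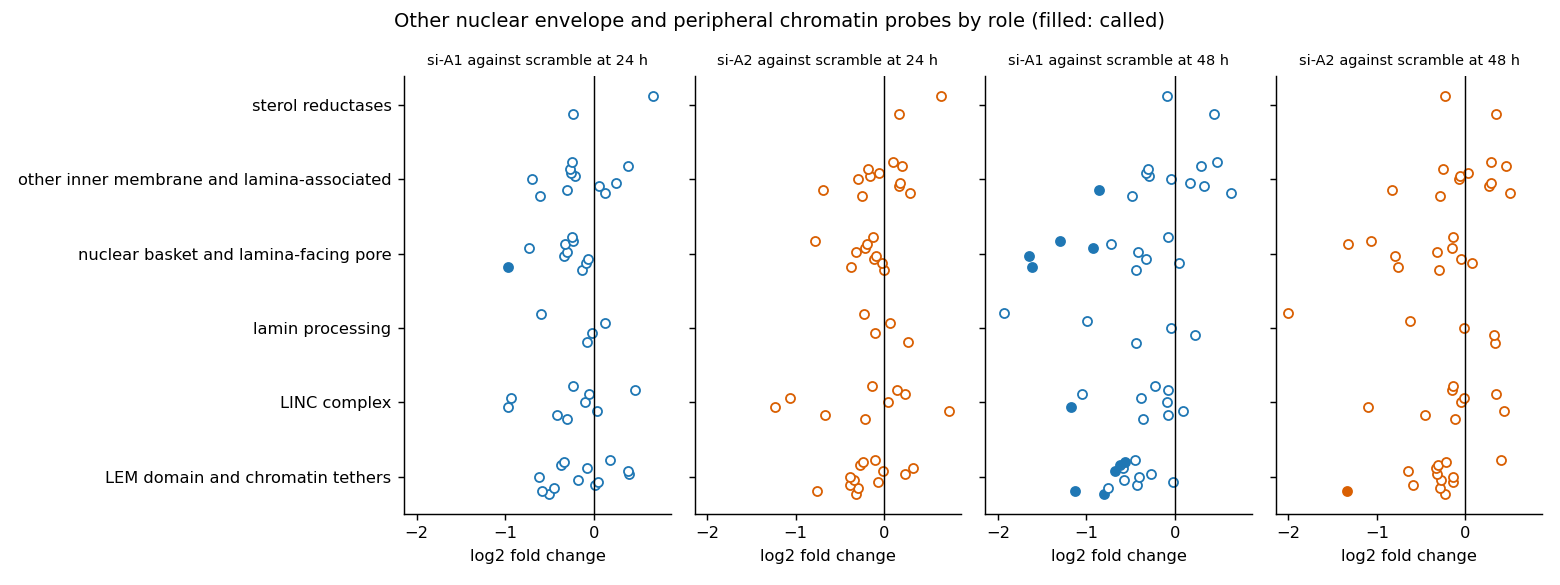
Log2 fold change against scramble (horizontal axis, the same in all panels) of listed nuclear envelope and peripheral chromatin probes, grouped by role, for each siRNA and time; each point is 1 probe and filled points were called. After si-A1 at 48 h 11 of the points drawn are filled, all left of 0 and most of them in the pore and chromatin tether rows.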

How the data were processed

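The members and the gene lists were chosen with earlier results of these data known. The authors deposited Feature Extraction files, whose processed signal is a linear intensity after background subtraction, and for either time point a table of log2 values. All columns of such a table have the same median (5.07 at 24 h, 4.69 at 48 h) and order the spots as the processed signal does, so they hold quantile-normalized values. Per the submitters' notes they used R 3.4.3 and limma 3.34.8.

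The log2 of the processed signal was quantile-normalized within a time point. Control spots were dropped, flagged spots set aside and repeated spots averaged. Probes were named through RefSeq accessions (GRCh38.p14), which gave 57.4% of probes at 24 h and 53.4% at 48 h a gene. Probes above the mean plus 3 SDs of the 308 negative controls on at least 3 arrays were tested in limma 3.58.1 (R 4.3.3; lmFit, eBayes, Benjamini-Hochberg adjustment), with the 3 siRNA groups in 1 fit and the slide as an additive term. The study also dropped probes whose interquartile range was under 0.5, which was tried here as an alternative only. It further dropped probes that matched several places in the genome and annotated the others with Gencode. Neither step was done here, so the probes tested differ from those of the study. The number of arrays and the signal over background limit the precision. The change of an effect between times was fitted on probes common to both array versions, normalized together. Envelope genes named are those called in any comparison and the most intense of each role, and likeness is Pearson's r. 1 listed gene is counted but not reported or drawn singly here. Scripts were tested on simulated data. At 48 h every same-numbered pair deviated together by r over 0.1 (0.155 to 0.292 over 10 pairs), so replicate numbers were read as a pairing there. The main fits and the permutation tests did not use it, and the replicate block was an alternative only. That pairing comes from the data and largely follows the slide: differently numbered arrays of the same slide gave 0.0767 to 0.238, and after subtracting slide means same-numbered pairs gave 0.0257 to 0.0708.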

Additional observations from a re-analysis of the deposited data

Results flagged for a closer look

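In 4 of 40 probe-by-group sets of 4 arrays, 1 array stood apart from the others by Dixon's criterion, and chance alone sets about 1 in 20 apart. All 4 were at 24 h. The lamin A probe of *LMNA* (A_33_P3311285) was low in scramble replicate 3, with 0.903 of the group's range between it and the nearest array. The NM_001282625 probe of *LMNA* (A_33_P3408762) was low in si-A1 replicate 3 (0.92 of the range) within a group that spanned 9.32 to 9.52. The *LMNB2* probe was low in si-A1 replicate 2 (0.962 of the range), and the LAP2 beta probe of *TMPO* was low in si-A2 replicate 1 (0.86 of the range), where it was not well above background. The si-A1 effect on *LBR* differed between 48 h and 24 h by -1.57 on the log2 scale (adjusted p = 0.0045, limma), with array version and time not separable.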

How the results depend on the processing

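Of 1737 refitted values of single lamina probes 1633 held their direction and their side of the threshold, 55 lost a call, 15 gained one and 34 changed sign, none of the last in a called result. Most of the 1737 were of uncalled results, where no call could be lost. After si-A2 at 24 h the call was lost in 16 of 27 refits for *LMNB1* and 5 of 27 for LAP2 alpha. After si-A1 at 48 h it was lost in 3 of 27 each for *LMNB1* and LAP2 alpha. The losses there were 3 of 26 for LAP2 beta and 12 of 27 for *LBR*. For the si-A1 effect on *LBR* between times it was lost in 13 of 30. The causes were not tested. After si-A2 at 24 h 2 probes were called; 1 was called with no filter on low values and with normexp background correction, 0 when only the groups compared were in the fit, 0 within slide 1 or slide 2, and 0 to 2 on leaving out 1 array. With the replicate block, where replicate numbers do not pair the 24 h samples (same-numbered arrays correlated from -0.137 to 0.153), 0 were called there, and 298 of all probes in place of 410. After si-A1 at 24 h 1 was called in place of 0 at an adjusted p under 0.05, with normexp and with the well above background filter. After si-A1 at 48 h 4 became 0 within either slide and with the dim array included, when 24 of all probes were called in place of 2320; it became 3 with normexp (*LBR* at -0.46) and 5, with *LMNB2*, at an adjusted p under 0.05 and with the well above background filter. After si-A2 at 48 h 0 became 1 with 75th percentile scaling, with the slide as a random block, at an adjusted p under 0.05 and with the well above background filter, and 2 with normexp, with 578 of all probes called in place of 117. Between siRNAs at 48 h 0 became 1 at an adjusted p under 0.05 and with the well above background filter. For the si-A1 effect at 48 h against 24 h 1 became 2 at an adjusted p under 0.05 and with normexp, 0 with the replicate block or the dim array, and 0 to 1 on leaving out 1 array. Normexp with its offset of 50 also compressed the changes of dim probes, the log2 fold change of *LMNB1* after si-A2 at 24 h becoming -0.73.

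The change of *LMNB1* minus *LMNA* after si-A2 at 48 h was -1.19 with the replicate block and -1.11 with slide means subtracted. Both are given without a p, because the permutation was not kept within blocks or slides. On leaving out 1 array the change at 24 h ran from -1.86 to -0.82 for si-A1 and from -2.54 to -1.51 for si-A2. The exact permutation p was 0.0857 and 0.0571 when an array of the siRNA itself was left out. Over all 18 settings tried, the smallest change was -0.82 for si-A1 and -1.17 for si-A2 at 24 h. At 48 h it was -0.69 for si-A1 and -0.50 for si-A2, so the size of the change depended on the processing. Beside the calls lost as counted above, the replicate block ended that of *LBR* after si-A1 at 48 h (adjusted p = 0.0129).

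Signs that changed were of uncalled values. With the dim array included, the log2 differences between si-A2 and si-A1 at 48 h were -0.61 for *LBR*, -0.28 and -0.77 for the lamin C and lamin A probes, -1.21 for *LMNB2* and -0.62 for LAP2 alpha, and those of the lamin C and NM_001282625 probes between si-A2 and scramble at 48 h were -0.072 and -0.10. Within 1 slide *LBR* after si-A2 at 24 h was -0.030, lamin A after si-A2 at 48 h 0.091, NM_001282625 after si-A1 at 24 h 0.016 and LAP2 beta between siRNAs at 24 h 0.35. With 75th percentile scaling lamin A after si-A2 at 48 h was 0.030 and NM_001282625 after si-A1 at 24 h 0.020. With normexp the si-A2 effect at 48 h against 24 h was 0.039 for lamin C and -0.062 for LAP2 beta. On leaving out 1 array, lamin C ran from -0.085 to 0.011 after si-A1 at 24 h, from -0.019 to 0.10 between siRNAs at 48 h and from -0.075 to 0.045 for the si-A2 effect between times. Lamin A ran from -0.026 to 0.72 after si-A2 at 24 h, from -0.11 to 0.064 after si-A2 at 48 h, from -0.14 to 0.013 and from -0.0055 to 0.17 between siRNAs at 24 h and 48 h, and from -0.82 to 0.0023 for the si-A2 effect between times. *LMNB2* ran from -0.29 to 0.018 and LAP2 beta from -0.67 to 0.12 between siRNAs at 24 h, and LAP2 alpha from -0.19 to 0.063 for the si-A2 effect between times.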
